A study of Mus musculus with 2 samples.

Results

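The 9 genes described here act in autophagy and mitophagy, the process by which a maturing red cell removes its mitochondria and other organelles: Bnip3l, Map1lc3b, Gabarapl2, Gabarapl1, Ulk1, Sqstm1, Atg7, Fundc1 and Optn. They were taken by gene symbol, and all 9 were found among the 32285 genes of the tables. The data were 2 libraries of spleen cells from C57BL/6 mice that had been made chronically anaemic for 1 month, made with 3′ droplet single-cell RNA sequencing, which tags each captured molecule with a molecular identifier (UMI) and counts it once. One library came from mice injected with PHZ every 3 days (PHZ, phenylhydrazine, oxidises haemoglobin and lyses red cells), and the other from mice bled every 3 days. Both groups were anaemic, and no library of untreated mice is analysed here. The labels give neither the age of the mice nor how many contributed to each library. With 1 library per treatment no test is possible, so a difference between PHZ and bleeding is a difference between 2 libraries. All intervals below are 95% intervals that cover counting error only.

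In autophagy, a kinase complex that contains Ulk1 starts a membrane sheet, which grows round its cargo and fuses with the lysosome. Small proteins of the Atg8 family, here Map1lc3b (LC3B), Gabarapl1 and Gabarapl2 (GATE-16), are joined to lipid on that membrane, a step that needs the E1-like enzyme Atg7. Receptors then bind the cargo on one side and Atg8 proteins on the other. Bnip3l (NIX) and Fundc1 are receptors in the outer mitochondrial membrane, and Sqstm1 (p62) and Optn (optineurin) bind ubiquitin-tagged cargo. In mice, loss of Bnip3l leaves mitochondria in circulating red cells and causes anaemia, and loss of Atg7 in blood cells likewise impairs mitochondrial clearance.

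Promoters of 4 of the genes are shown, chosen because Map1lc3b and Gabarapl2 had more UMIs per barcode in late than in early cells, Gabarapl1 differed most between the treatments, and Fundc1 had the lowest level of the 9 in late cells. Each run covers 250 bases before and 50 bases after the annotated start, 5′ to 3′ on the gene's own strand, from RefSeq on GRCm38.p6. Capitals mark CACCC or its reverse complement GGGTG, the core letters recognised by Klf1, the main erythroid factor of the Krüppel-like family. The regions are chr8:121590188-121590487 (plus strand) for Map1lc3b, chr8:111940453-111940752 (plus) for Gabarapl2, chr6:129532942-129533241 (plus) for Gabarapl1 and chrX:17571958-17572257 (minus) for Fundc1.
Map1lc3b: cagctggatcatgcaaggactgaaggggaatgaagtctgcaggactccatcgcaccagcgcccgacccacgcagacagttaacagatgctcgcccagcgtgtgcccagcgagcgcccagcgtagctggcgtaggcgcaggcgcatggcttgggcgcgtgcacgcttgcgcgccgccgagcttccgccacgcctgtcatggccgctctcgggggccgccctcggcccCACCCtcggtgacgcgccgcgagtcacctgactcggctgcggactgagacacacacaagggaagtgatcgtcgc
Gabarapl2: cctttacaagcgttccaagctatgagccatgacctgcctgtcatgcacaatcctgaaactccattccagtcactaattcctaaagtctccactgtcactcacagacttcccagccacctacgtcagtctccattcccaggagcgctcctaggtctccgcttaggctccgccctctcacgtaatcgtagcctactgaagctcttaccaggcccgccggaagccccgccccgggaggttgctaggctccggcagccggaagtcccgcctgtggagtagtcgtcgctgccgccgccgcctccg
Gabarapl1: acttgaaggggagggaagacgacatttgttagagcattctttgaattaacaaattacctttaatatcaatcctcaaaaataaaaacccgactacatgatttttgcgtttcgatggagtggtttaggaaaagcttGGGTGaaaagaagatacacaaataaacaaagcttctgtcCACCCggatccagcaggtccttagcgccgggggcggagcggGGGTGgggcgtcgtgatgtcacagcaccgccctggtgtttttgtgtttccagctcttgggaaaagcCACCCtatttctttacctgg
Fundc1: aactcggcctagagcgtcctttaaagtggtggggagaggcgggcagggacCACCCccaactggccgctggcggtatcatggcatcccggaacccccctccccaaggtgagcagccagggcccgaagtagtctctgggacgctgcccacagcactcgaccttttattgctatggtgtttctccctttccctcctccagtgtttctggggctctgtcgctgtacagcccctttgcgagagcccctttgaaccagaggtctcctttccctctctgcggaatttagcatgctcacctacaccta

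The RefSeq table held a promoter for 8 of the 9 genes, all but Bnip3l. CACCC was searched on both strands and occurred in 5 of the 8 (Map1lc3b, Gabarapl1, Ulk1, Sqstm1 and Fundc1), against 57.5% of all 32851 promoters. In Gabarapl1 it occurred 4 times and in Gabarapl2 not once. GATAA, the letters bound by GATA factors, was in none of the 8 windows, against 25.4% of all promoters, and CACGTG, bound by Tfeb and its relatives, was in that of Atg7, against 7.15%. That Atg7 window, chr6:114670846-114671145 (plus), lies inside the gene, which begins at 114643097 in the GENCODE annotation. The printed Fundc1 window also lies inside its gene, which on the minus strand begins at 17572325 in that annotation. Its CACCC match is therefore within the gene. The sequence round the first position of either gene was not searched. No 2 matches overlapped in the printed windows. These are matches of letters in one window and say nothing on binding.

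On GRCm38, with GENCODE annotation, Bnip3l (ENSMUSG00000022051) spans 66985239 to 67008877 of chromosome 14 on the minus strand. Map1lc3b (ENSMUSG00000031812) lies at 121590361 to 121598760 and Gabarapl2 (ENSMUSG00000031950) at 111940703 to 111953612 of chromosome 8, both on the plus strand. Gabarapl1 (ENSMUSG00000030161) occupies 129533160 to 129542346 of chromosome 6, plus strand, and Atg7 (ENSMUSG00000030314) 114643097 to 114860614 of the same chromosome and strand. Ulk1 (ENSMUSG00000029512) is at 110784488 to 110810097 of chromosome 5, minus strand, and Sqstm1 (ENSMUSG00000015837) at 50199366 to 50210827 of chromosome 11, minus strand. Fundc1 (ENSMUSG00000025040) is at 17556564 to 17572325 of chromosome X and Optn (ENSMUSG00000026672) at 5020642 to 5064051 of chromosome 2, both on the minus strand. Gene models on the same strand overlap Map1lc3b, Gabarapl1 and Atg7, and what effect reads shared with them had on the counts was not checked.

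The libraries held 128130213 UMIs (PHZ) and 145260780 UMIs (bleeding). After filtering, 6113 PHZ cells with a median of 12205 UMIs and 8953 bleeding cells with a median of 8042 UMIs remained, and 36 barcodes of 1000 or more UMIs occurred in both libraries. Clusters named from marker genes gave 3217 erythroid-like cells under PHZ (52.6%) and 2367 under bleeding (26.4%). All 16 erythroid markers had UMIs in every erythroid stage of both libraries. All 16 also had UMIs in B cell-like and T cell-like cells, so their presence does not tell the stages from those cells. Their summed level (in CPM, defined below) was lowest among the stages under 20% haemoglobin, at 8000 (PHZ) and 7220 (bleeding). It was 326 and 175 in B cell-like cells, and 321 and 224 in T cell-like cells. Red pulp macrophage-like cells, at 8320 and 14500, were not set apart in this way. Erythroid-like cells were ordered by the share of their UMIs from haemoglobin genes, which rises as red cells mature. Under PHZ, 382 cells were below 20% (early), 274 at 20 to 50%, 904 at 50 to 80%, and late cells at 80% or more were split into 385 with 500 or more genes (gene-rich) and 1272 with at least 300 but fewer than 500 (gene-poor). Under bleeding these were 173, 117, 397, 204 and 1476 cells. A further 2545 PHZ and 3000 bleeding barcodes had at least 1000 UMIs, 80% or more haemoglobin and under 300 genes. These low-gene barcodes are described by their rule and given no cell type name. The cells were clustered without the 9 genes, and staged by haemoglobin share and by the number of genes detected.

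Levels are given in 2 ways, because non-haemoglobin RNA per barcode shrank along maturation. Early cells averaged 44520 non-haemoglobin UMIs under PHZ and 43020 under bleeding, gene-rich late cells 2322 and 2224, and low-gene barcodes 511.2 and 614.1. The first measure is UMIs per 1000000 non-haemoglobin UMIs (CPM), the share of the remaining RNA. The second is the mean number of UMIs per barcode. A gene whose RNA is only kept while other RNA is lost gains CPM without gaining UMIs.

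Bnip3l, the mitophagy receptor, made up a growing share of non-haemoglobin RNA at every step of maturation in both libraries. Its level was 131, 304, 1740 and 6070 CPM under PHZ from early cells to gene-rich late cells, then 8350 CPM in gene-poor late cells and 10400 CPM in low-gene barcodes. Under bleeding the same 6 groups had 122, 476, 2000, 6850, 9950 and 12800 CPM. The late over early ratio was 46.5 (44.2 to 48.9) under PHZ and 56.3 (52.3 to 60.7) under bleeding. In low-gene barcodes Bnip3l ranked 18th (PHZ) and 11th (bleeding) by UMIs among non-haemoglobin genes. Tags are counted once per molecule and are not scaled by gene length.

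Counted per barcode, Bnip3l rose less and peaked in late cells. Early cells held 5.81 UMIs per barcode under PHZ and 5.24 under bleeding, gene-rich late cells 14.1 and 15.2, and low-gene barcodes 5.34 and 7.86. Late over early was 2.43 (2.31 to 2.55) under PHZ and 2.91 (2.70 to 3.14) under bleeding. Low-gene barcodes therefore had fewer Bnip3l UMIs each than late cells, at 0.379 and 0.516 times their number, while the share was higher, at 1.72 and 1.87 times. In finer steps, the per-cell count under PHZ was 4.88 between 50 and 60% haemoglobin and 9.91 between 60 and 70%, and under bleeding 3.76 and 11.0. At 80 to 85, 85 to 90 and 90 to 95% haemoglobin it was 13.6, 12.4 and 10.9 under PHZ. Under bleeding it was 11.8, 12.6 and 11.7 in these bins. The split by genes detected itself sets barcodes with fewer UMIs apart. The fall per barcode from gene-rich cells to low-gene barcodes cannot be told apart from that rule.

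The Atg8 proteins Map1lc3b and Gabarapl2 followed the course of Bnip3l. Map1lc3b measured 148 CPM in early and 6240 CPM in gene-rich late cells under PHZ, and 137 and 5730 CPM under bleeding, ratios of 42.0 (40.1 to 44.1) and 41.9 (38.9 to 45.1). Gabarapl2 measured 84.2 and 4580 CPM under PHZ and 74.6 and 4750 CPM under bleeding, ratios of 54.4 (51.2 to 57.8) and 63.7 (58.0 to 70.1). Per barcode the late over early ratios were 2.19 and 2.17 for Map1lc3b and 2.84 and 3.29 for Gabarapl2 under PHZ and bleeding. In low-gene barcodes the 2 genes parted: Gabarapl2 went on to 7690 CPM (PHZ) and 8870 CPM (bleeding), 1.68 and 1.87 times late cells, whereas Map1lc3b stood at 6350 and 7200 CPM, 1.02 (0.984 to 1.05) and 1.26 (1.2 to 1.31) times.

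**Figure D1:**
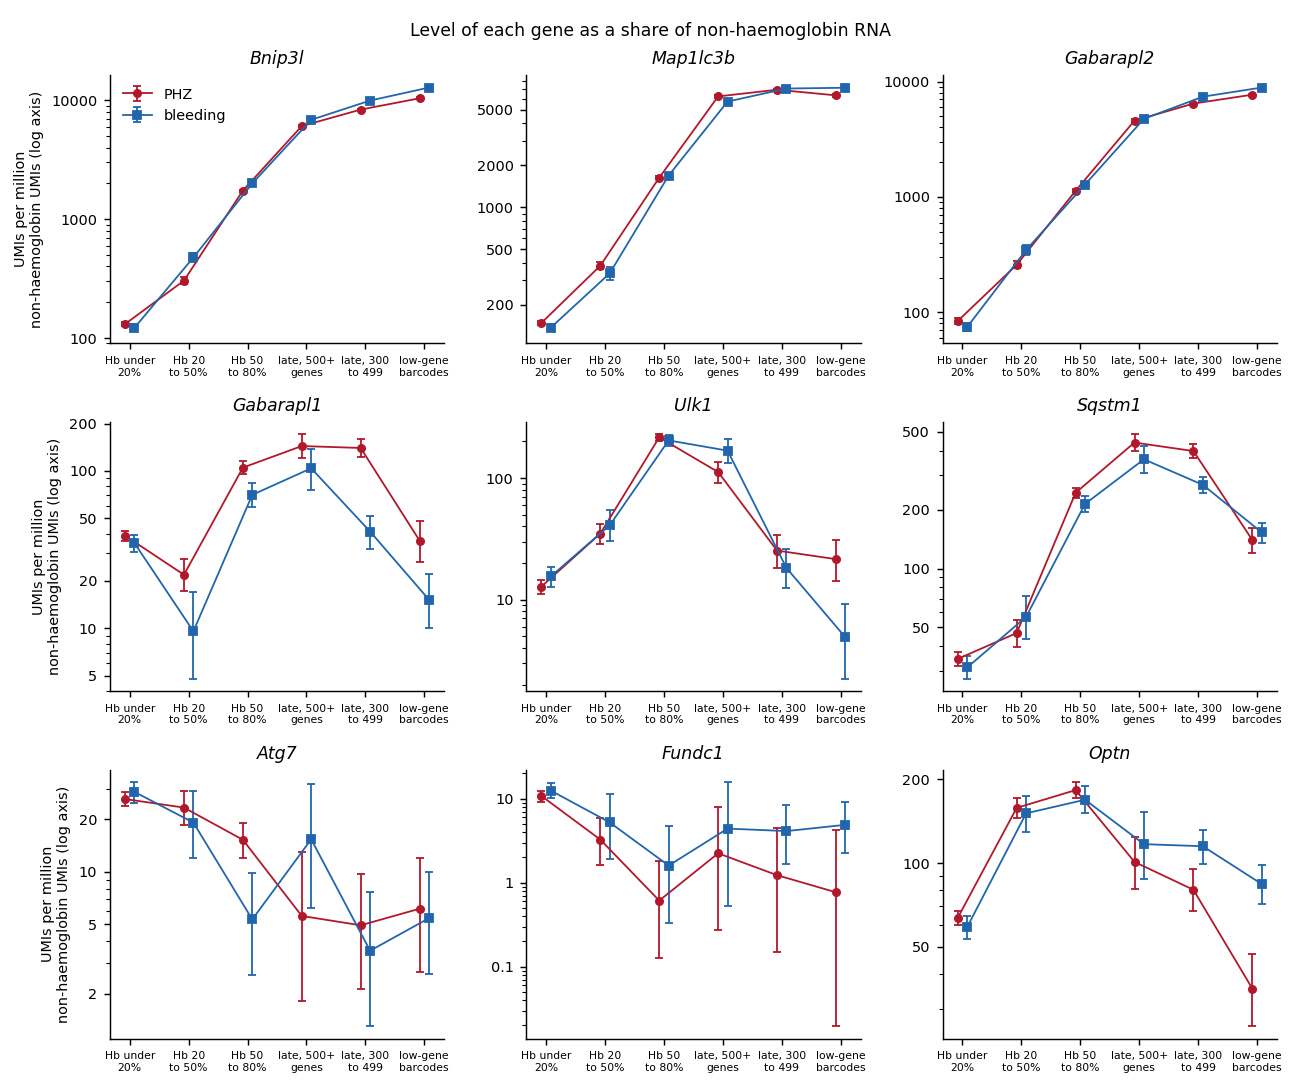
Level of each of the 9 genes (CPM, log axis, a separate scale in each panel) along erythroid maturation in the PHZ library (red circles) and the bleeding library (blue squares), with exact Poisson 95% intervals. Bnip3l, Map1lc3b and Gabarapl2 climb from 74.6 to 148 in early cells to 4580 to 6850 in gene-rich late cells, while Ulk1 is highest at 50 to 80% haemoglobin and Atg7 and Fundc1 are highest in early cells.

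Gabarapl1, another Atg8 protein, was far less abundant and followed another course. Under PHZ it had 38.8 CPM in early cells, 21.9 at 20 to 50% haemoglobin, 105 at 50 to 80%, 144 and 140 in the 2 groups of late cells and 36.1 in low-gene barcodes. Under bleeding these values were 34.8, 9.58, 70.5, 104, 41.2 and 15.2 CPM. Late over early was 3.72 (3.06 to 4.50) under PHZ and 2.98 (2.13 to 4.07) under bleeding. Per barcode the direction turned, with 1.73 UMIs in early and 0.335 in gene-rich late cells under PHZ, and 1.5 and 0.230 under bleeding.

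Ulk1, the initiating kinase, was highest before the late stage. It had 12.8 CPM in early PHZ cells, 216 CPM at 50 to 80% haemoglobin, 112 CPM in gene-rich and 25.3 CPM in gene-poor late cells. The bleeding values were 15.5, 204, 168 and 18.2 CPM. At 50 to 80% haemoglobin Ulk1 also exceeded early cells per barcode, at 2.05 (1.77 to 2.38) times under PHZ and 1.44 (1.17 to 1.79) times under bleeding. Gene-rich late cells had 8.72 times (PHZ) and 10.8 times (bleeding) the early CPM, but 0.455 and 0.560 times the early UMIs per barcode. In low-gene barcodes 28 PHZ and 9 bleeding UMIs remained, where free RNA alone would give 21.9 and 20.8, an estimate from the immunoglobulin transcript Igkc, which erythroid cells do not make.

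The 2 ubiquitin-binding receptors differed. Sqstm1 had 34.5 CPM in early and 441 CPM in gene-rich late cells under PHZ, and 31.2 and 362 CPM under bleeding, ratios of 12.8 (11.2 to 14.5) and 11.6 (9.44 to 14.2). Per barcode it was lower in late cells, at 0.666 and 0.599 times. Its CPM in low-gene barcodes, 140 (PHZ) and 153 (bleeding), was 0.317 and 0.422 times that of late cells. Optn was highest at 50 to 80% haemoglobin, at 183 CPM under PHZ and 169 CPM under bleeding, and late over early came to 1.58 and 1.99, under the 2-fold limit in both libraries. Its UMIs per barcode declined along all stages, to 0.234 (PHZ) and 0.260 (bleeding) in gene-rich late cells, where early cells had 2.83 and 2.53.

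Atg7 and Fundc1 were rare in late cells. Atg7 had 445 UMIs in early and 5 in gene-rich late PHZ cells, and 214 and 7 under bleeding, ratios of CPM of 0.214 (0.0690 to 0.502) and 0.537 (0.213 to 1.12). Fundc1 had 183 and 2 UMIs under PHZ and 93 and 2 under bleeding. Its CPM ratios of 0.208 and 0.353 rest on those 2 UMIs each. Free RNA would give 3.78 (PHZ) and 3.36 (bleeding) Atg7 UMIs and 1.03 and 1.68 Fundc1 UMIs in these late cells. Levels this low could not be told apart from free RNA at this depth.

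**Figure D2:**
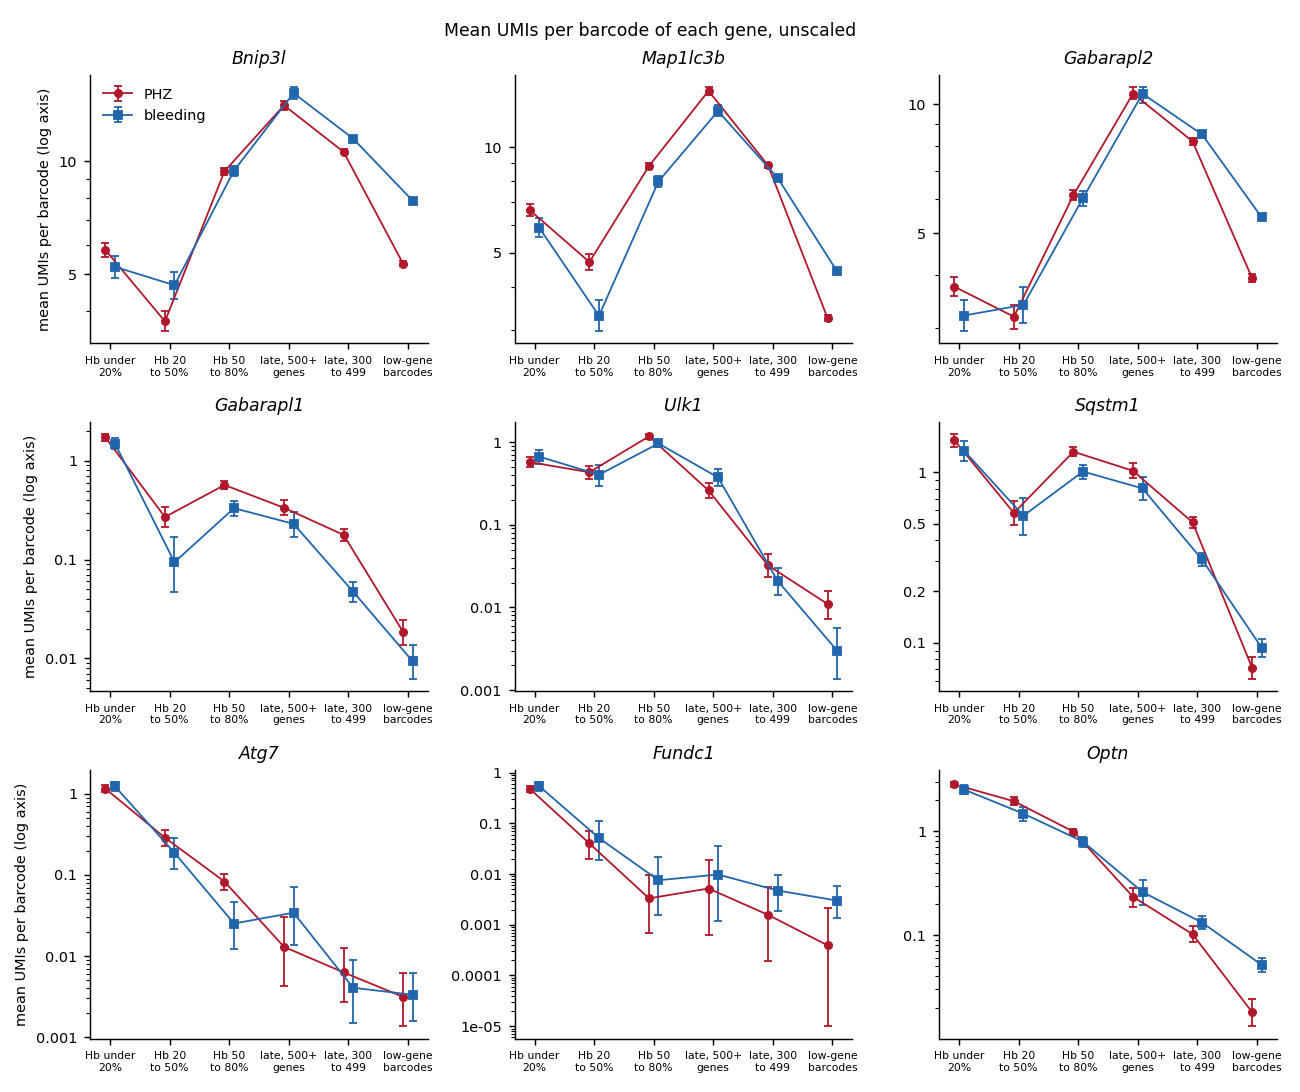
Mean UMIs per barcode of each gene, unscaled (log axis, a separate scale in each panel), in the same 6 groups, PHZ as red circles and bleeding as blue squares, with exact Poisson 95% intervals. Bnip3l, Map1lc3b and Gabarapl2 have their highest mean in gene-rich late cells at 10.6 to 15.2 UMIs, and the other 6 genes have fewer UMIs there than in early cells. Late cells and low-gene barcodes are split by genes detected, which itself separates barcodes by their number of UMIs.

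Read against all genes, 6 of the 9 genes were over 2-fold higher in CPM in gene-rich late than in early cells in both libraries (Bnip3l, Map1lc3b, Gabarapl2, Gabarapl1, Ulk1 and Sqstm1), where 6.94% of the 8547 genes measured were. One of the 9, Fundc1, was lower by that rule, where 73.3% of genes were. With gene-poor late cells, the larger group, 4 of the 9 were higher (Bnip3l, Map1lc3b, Gabarapl2 and Sqstm1) and Atg7 and Fundc1 lower. Shares of all genes were not counted for gene-poor late cells, and those above belong to gene-rich ones. Ulk1 then had 25.3 CPM in gene-poor late and 12.8 CPM in early cells under PHZ but 18.2 and 15.5 CPM under bleeding, and Gabarapl1 41.2 and 34.8 CPM under bleeding. The median log2 ratio was 3.13 (PHZ) and 3.44 (bleeding) over the 9 genes, and -3.10 and -2.52 over all genes, so that most genes held a smaller share in late than in early cells. By UMIs per barcode in gene-rich late cells, 3 of the 9 (Bnip3l, Map1lc3b and Gabarapl2) were over 2-fold higher than in early cells in both libraries, where 0.433% of genes were, and 4 (Gabarapl1, Atg7, Fundc1 and Optn) were lower, where 97.4% were. Gabarapl1, Ulk1 and Sqstm1 were thus higher as a share and lower as a count. The genes were chosen with earlier results of these data known, so these counts describe them and are no independent evidence.

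Between low-gene barcodes and gene-rich late cells, 7 of the 9 genes could be measured. None was over 2-fold higher in CPM in both libraries, where 1.01% of 1675 genes were, and 3 (Gabarapl1, Ulk1 and Sqstm1) were lower, where 33.4% were. Over all genes the log2 ratio had a median of -0.69 (PHZ) and -0.73 (bleeding). Bnip3l and Gabarapl2, at 1.68 to 1.87 times, went against that shift without reaching 2-fold. Free RNA made up an estimated 22.0% (PHZ) and 25.3% (bleeding) of the non-haemoglobin UMIs of low-gene barcodes. This estimate can be too high. Under bleeding it gave 20.8 Ulk1 UMIs where 9 were counted and 19.9 Atg7 UMIs where 10 were counted. Under PHZ it gave 21.9 Ulk1 UMIs where 28 were counted. Free RNA would account for 0.983 to 1.94% of the Bnip3l, Map1lc3b and Gabarapl2 UMIs there, since background barcodes held these genes at 344 to 578 CPM.

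Mitochondrially encoded RNA, the material of the organelle these genes act on, fell per barcode over the same groups. Under PHZ the mean was 1330 UMIs per barcode in early cells, 90.3 at 50 to 80% haemoglobin, 67.1 in gene-rich late cells and 10.9 in low-gene barcodes. Under bleeding it was 1320, 75.8, 75.2 and 14.9. As a share of non-haemoglobin UMIs it stayed between 1.67 and 2.99% under PHZ and between 1.61 and 3.38% under bleeding. Barcodes above 10% mitochondrial UMIs had been removed, and late cells and low-gene barcodes were split by genes detected. Both limit what these measures can show.

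The genes whose levels ran most like Bnip3l over the 25 stages and cell classes of both libraries, by Pearson's r of log2(CPM + 10) among 715 genes with enough UMIs, were Ppp1cb (r = 0.996), Mkrn1 (0.992), Rnf10 (0.991), Bpgm (0.990) and Map1lc3b itself (0.989). For Map1lc3b they were Rnf10 (0.992), 1810058I24Rik (0.990), Bnip3l (0.989), Fam220a (0.989) and Gabarapl2 (0.988). Mkrn1 encodes a ubiquitin ligase, Bpgm makes the 2,3-bisphosphoglycerate of red cells, and Ppp1cb is a catalytic subunit of protein phosphatase 1. Of the other genes described, Sqstm1 had r = 0.873 with Bnip3l, Ulk1 0.519, Fundc1 -0.679 and Atg7 -0.733. The points share libraries and the loss of non-haemoglobin RNA, so these values are a description.

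A wider list of 72 genes of the pathway, set up by role, showed both directions. In the comparisons of this list, late cells are the gene-rich ones. Of the 65 genes measured, 19 were over 2-fold higher in late than in early cells in CPM in both libraries, where 6.94% of all genes were, and 30 were lower, where 73.3% were. The list's median log2 ratio was -1.13 (PHZ) and -0.56 (bleeding), above the medians of all genes given above. By UMIs per barcode Calcoco1 and Pink1 were the 2 of the 65 that were over 2-fold higher in both libraries, where 0.433% of all genes were, and 59 were lower, where 97.4% were. Over 4-fold in CPM, 13 genes were higher and 20 lower in both libraries, the second count including genes at 0 UMIs in late cells of at least 1 library. The share of all genes past 4-fold was not counted. Their median log2 ratio, -3.10 (PHZ) and -2.52 (bleeding), was itself over 4-fold lower, so the count of 20 does not single out this list. Genes outside the rule for naming (Fundc2, Bnip3, Fkbp8, Ambra1, Vmp1, Snap29, Wipi2, Vamp8 and Ctsd) were chosen after their values were seen.

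Upstream components were split. In the initiation complex Rb1cc1, the scaffold also called FIP200, was higher in late cells by 5.07 (PHZ) and 7.21 (bleeding) times, while Ulk2, a second kinase, was over 4-fold lower. Of 7 measured genes of the lipid kinase complex, Becn1 (5.07 and 5.66 times) and Atg14 were higher and 4 lower, among them Nrbf2 and Uvrag over 4-fold. For membrane supply, Atg9a was higher at 5.84 (PHZ) and 10.4 (bleeding) times, and Atg2b and Tmem41b were over 4-fold lower, the second with 1 (PHZ) and 0 (bleeding) UMIs in gene-rich late cells. Conjugation enzymes included Atg12 (8.65 and 8.84 times) and the protease Atg4a (13.1 and 18.8 times) on the higher side. Atg3, the E2-like enzyme that acts after Atg7, was at 0.0849 and 0.111 times, and Atg4c, with 0 and 1 UMIs in gene-rich late cells, was also lower.

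Among receptors, 4 of 8 further cargo receptors were higher and 3 lower. Tax1bp1, which binds ubiquitin-tagged cargo, reached 2840 (PHZ) and 2420 CPM (bleeding) in late cells, 14.4 and 12.8 times early cells. Ncoa4, which carries ferritin to the lysosome, reached 1260 and 1620 CPM, 27.1 and 38.3 times. Nbr1 stood at 7.66 and 9.13 times and Calcoco1, the gene with the largest ratio on the list, at 106 and 94.0 times, whereas Wdfy3 (4 and 0 UMIs in gene-rich late cells) and Tex264 (1 and 0) were lower. Of the other mitochondrial receptors, Fundc2 was higher at 4.0 (PHZ) and 3.32 (bleeding) times, and Bcl2l13, Pgam5 and Phb2 (0.0332 and 0.0347 times) were lower. Bnip3, the paralogue of Bnip3l, had 34 and 9 UMIs in early cells and none in gene-rich late cells of either library, and did not pass the minimum of 50 UMIs.

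Pink1, the kinase that marks damaged mitochondria, was among the genes with the largest ratios. It had 394 CPM in late PHZ cells and 339 CPM in late bleeding cells, against 8.06 and 6.99 CPM in early cells, 48.9 and 48.6 times. Vdac1, a channel of the outer mitochondrial membrane, was at 0.0328 and 0.0462 times, and Usp30, a deubiquitinase of that membrane, had no UMI in gene-rich late cells of either library, against 67 and 37 in early cells. Gabarap, the fourth Atg8 gene measured, was higher at 6.86 and 4.82 times, with 943 and 747 CPM in late cells. Downstream, the lysosomal protease Ctsb was higher at 6.85 and 7.68 times, while Ctsl, Lamp2, Atp6v1a and the fusion factor Rab7 were over 4-fold lower, as were the regulators Rptor and Prkaa1.

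Between the treatments, 1 of the 26 listed genes measured in gene-rich late cells was over 1.5-fold higher under PHZ (Fkbp8), where 14.4% of all genes were, and 5 were lower (Ambra1, Atg9a, Vmp1, Atg4d and Snap29), where 18.3% were. In gene-poor late cells 4 of 26 were higher (Wipi2, Atg4d, Vamp8 and Ctsd), where 19.3% were, and 0 were lower, where 12.3% were. Atg4d, a protease that acts on Atg8 proteins, was at 0.324 (0.183 to 0.562) times the bleeding level in gene-rich late cells, from 23 PHZ and 36 bleeding UMIs. In gene-poor late cells it was at 1.57 (0.865 to 2.92) times, from 30 and 20 UMIs. In low-gene barcodes 1 of 25, the lysosomal protease Ctsd, was higher, where 19.9% of all genes were, and 0 were lower, where 16.1% were.

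**Figure D3:**
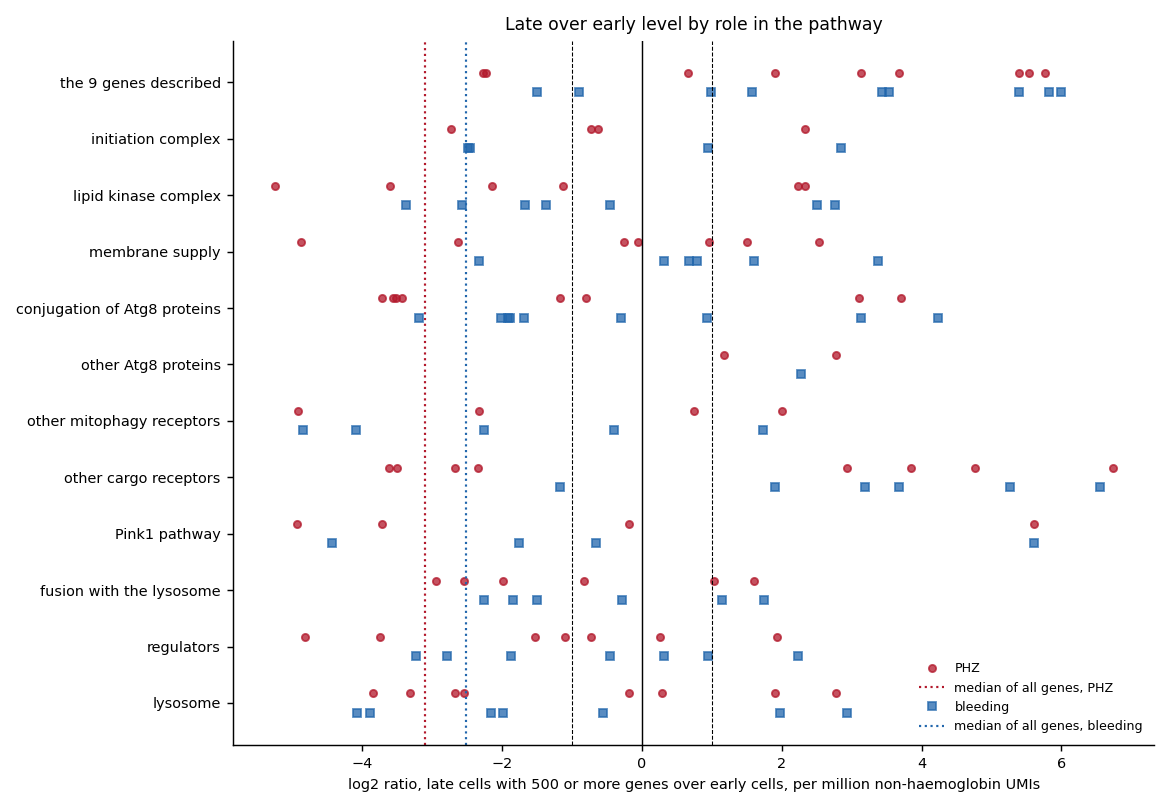
Log2 ratio of gene-rich late cells over early cells (of CPM) for the 9 genes and for the wider list by role, with PHZ as red circles above bleeding as blue squares; genes under 50 UMIs in a library or at 0 in late cells are not drawn. Dashed lines mark 2-fold and dotted lines the median of all genes (-3.10 PHZ, -2.52 bleeding); 7 of the 9 genes lie right of 0 in both libraries.

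Across cell classes, 6 of the 9 genes were highest in erythroid-like cells in both libraries: Bnip3l, Map1lc3b, Gabarapl2, Gabarapl1, Ulk1 and Optn. The share of all genes highest in that class was not counted, so this count only describes the 9 genes. Bnip3l had 1100 CPM in PHZ and 2000 CPM in bleeding erythroid-like cells. Monocyte-like cells had 222 and 209 CPM, neutrophil-like cells 189 and 228, T cell-like cells 121 and 118, and B cell-like cells 94.8 and 87.6. The lymphoid values were near that of early erythroid cells (131 and 122 CPM). Map1lc3b was likewise at 1030 and 1530 CPM in erythroid-like cells and between 102 and 308 CPM in the 6 classes other than these and macrophages. Gabarapl2 was at 805 and 1430 CPM against 82.8 to 135 CPM.

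Optn and Gabarapl1 were less abundant than those 3 genes. Optn was at 98.3 (PHZ) and 93.1 CPM (bleeding) in erythroid-like cells and 35.3 and 35.6 CPM in neutrophil-like cells. B cell-like cells had 9.40 and 12.2 CPM, and monocyte-like cells 0 and 1 UMI in all. Gabarapl1 had 57.7 and 41.1 CPM in erythroid-like cells, 23.4 and 15.4 CPM in monocyte-like cells and 3.45 and 3.09 CPM in neutrophil-like cells. Ulk1 had 55.2 and 51.5 CPM in erythroid-like cells and at most 21.4 CPM in the same 6 classes.

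Atg7 and Fundc1 were lowest in erythroid-like cells. Atg7 was highest in neutrophil-like cells, at 175 CPM (PHZ) and 150 CPM (bleeding), where intervals overlapped those of monocyte-like cells at 165 and 139 CPM. Erythroid-like cells had 22.0 and 20.5 CPM. Fundc1 was at 7.23 and 8.80 CPM in erythroid-like cells, dendritic cell-like cells had 49.5 and 40.5 CPM, and the bleeding macrophage-like cells had 52.1 CPM. Of all UMIs of a gene in barcodes of 1000 or more UMIs, erythroid-like cells and low-gene barcodes together held 87.1% (PHZ) and 78.3% (bleeding) for Bnip3l but 23.1% and 8.30% for Atg7.

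Red pulp macrophage-like cells, which engulf red cells, came next to erythroid-like cells for all 6 of these genes under bleeding. There were 232 of them, with 53.6% haemoglobin UMIs, and 18 under PHZ, fewer than the 20 set as a minimum. In the bleeding cells Bnip3l had 2165 UMIs (1740 CPM), while 1480 would be there if all their haemoglobin UMIs were free RNA, and 1140 if they came with RNA like that of low-gene barcodes. Map1lc3b had 766 UMIs, against 1160 and 643 by those 2 estimates, and Gabarapl2 820, against 986 and 792. Sqstm1 was higher there than in erythroid-like cells, at 142 CPM against 104 CPM, with 177 UMIs against estimates of 137 and 13.6. With all UMIs as the denominator, haemoglobin included, 2 genes (Map1lc3b and Gabarapl2) were highest in erythroid-like cells in both libraries.

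**Figure D4:**
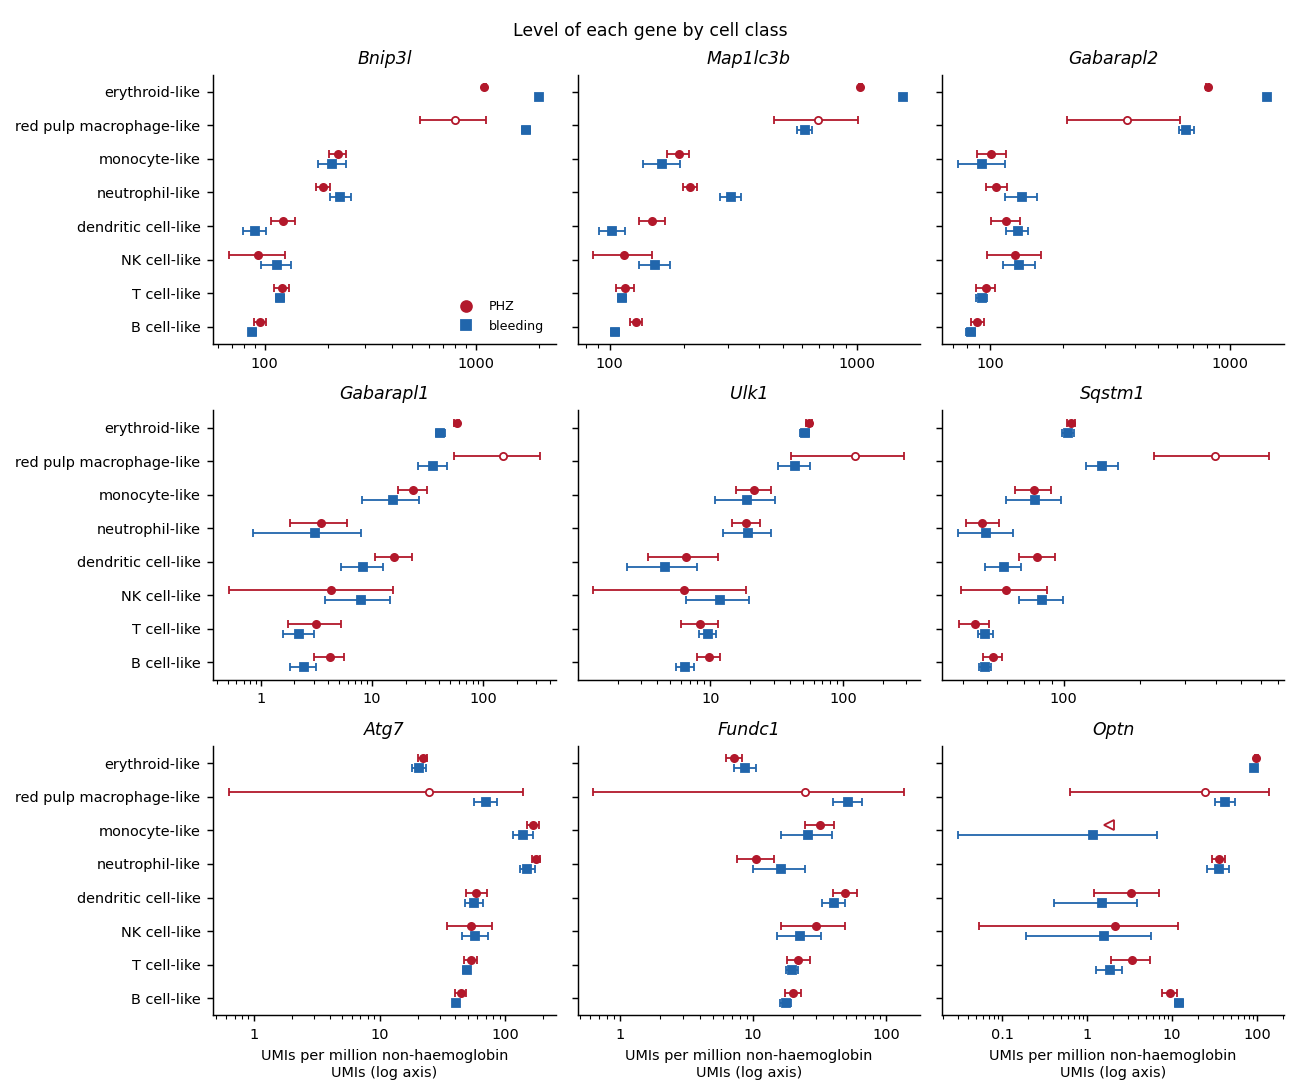
Level of each gene by cell class (CPM, log axis, a separate scale in each panel), PHZ as red circles above bleeding as blue squares, with exact Poisson 95% intervals; open circles mark the 18 PHZ macrophage-like cells and the open triangle the upper bound of a count of 0. The same 6 genes are highest in erythroid-like cells in both libraries among classes of 20 or more cells, and Atg7 and Fundc1 are lowest there.

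Between the treatments, none of the genes measured in gene-rich late cells passed 1.5-fold. In these cells PHZ over bleeding was 0.886 (0.847 to 0.926) for Bnip3l, 1.09 (1.04 to 1.14) for Map1lc3b and 0.963 (0.914 to 1.02) for Gabarapl2. Of the 7 genes measured there, 0 were over 1.5-fold higher under PHZ, where 14.4% of 1606 genes were, and 0 were lower, where 18.3% were. Ulk1 came nearest, at 0.668 (0.490 to 0.912), with 100 PHZ and 76 bleeding UMIs. Scaling by the median ratio over genes, in place of the total, raised all these log2 ratios by 0.49. It so put Bnip3l, Gabarapl2 and Optn above 1 and Map1lc3b, Gabarapl1 and Sqstm1 past 1.5-fold. That median was taken over 7527 genes, which had a median of only 11 UMIs in both libraries together. Over the 1606 genes measured, the median log2 ratio scaled by the total was -0.05. Those genes as a set thus showed no shift of that size.

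The erythroid-like class as a whole gave other values, and its stages were unevenly filled. Over the whole class Bnip3l was at 0.553 (0.544 to 0.562) times the bleeding level, Map1lc3b at 0.676 and Gabarapl2 at 0.562. By stage, Bnip3l was at 1.07, 0.639, 0.866, 0.886, 0.840 and 0.816 times, from early cells to low-gene barcodes. Gene-poor late cells, where Bnip3l was higher than in earlier stages, were 1272 of 3217 PHZ and 1476 of 2367 bleeding erythroid-like cells. Only the group at 20 to 50% haemoglobin, with 274 and 117 cells, went past 1.5-fold for Bnip3l. In UMIs per barcode that group was at 0.802 (0.723 to 0.892) times. Markers of other cells also differed there: those of B cells summed to 26.9 CPM under PHZ and 255 CPM under bleeding, over all 10, and those of T cells to 2.96 and 80.1 CPM, with 7 and 10 of 10 having UMIs. Red pulp macrophage markers summed to 62.7 and 236 CPM, with 2 and 12 of 12 having UMIs. Their part in the Bnip3l value was not tested.

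Atg7 also passed 1.5-fold in 1 stage, at 50 to 80% haemoglobin. It had 75 UMIs (15.3 CPM) in PHZ cells and 10 UMIs (5.34 CPM) in bleeding cells there, a ratio of 2.86 (1.47 to 6.21), where free RNA would give 9.07 and 5.0 UMIs. Neutrophil markers, from cells in which Atg7 was highest, summed to 473 CPM under PHZ and 213 CPM under bleeding in that stage, with 15 and 12 of 15 having UMIs, and their part was not tested.

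Gabarapl1 differed most between the treatments among the genes with 50 or more UMIs in a group. It was 3.39 (2.58 to 4.49) times higher under PHZ in gene-poor late cells, with 226 UMIs in 1272 PHZ cells and 70 UMIs in 1476 bleeding cells. It was the 1 gene of 7 past 1.5-fold there, where 19.3% of 2200 genes were higher and 12.3% lower, and 0 of the 7 were lower. By stage from early cells the ratio was 1.11, 2.29, 1.49, 1.39, 3.39 and 2.38, and per barcode it was 1.98 to 3.75 in the last 2 groups. At matched haemoglobin it was 1.72 (1.25 to 2.41) between 80 and 90% and 3.22 (2.42 to 4.33) between 90 and 95%.

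The PHZ level of Gabarapl1 was also higher in each of the 5 clusters that held late cells. It was 112 against 38.8 CPM in cluster 2, 132 against 73.5 in cluster 4, 148 against 39.0 in cluster 6, 179 against 123 in cluster 7 and 264 against 95.6 in cluster 21. Cluster 7 rests on 22 PHZ and 14 bleeding UMIs, and cluster 21 on 51 and 11. The clusters divide the same 2 libraries and are not replicates. Background barcodes of 10 to 100 UMIs showed a like ratio, 3.38 (2.35 to 4.95). Free RNA would give 14.0 of the 226 PHZ UMIs and 6.41 of the 70 bleeding UMIs in gene-poor late cells. Neutrophil markers were also higher there under PHZ, 1420 against 752 CPM summed over all 15, and those of B cells lower, 154 against 501 CPM over all 10. Neutrophil-like cells themselves had 3.45 and 3.09 CPM of Gabarapl1, below the 140 and 41.2 CPM of these late cells. What part free RNA or other cells have in the rest was not tested.

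Sqstm1 and Optn lay on opposite sides of 1 in late cells. Sqstm1 was at 1.22 (1.01 to 1.47) times the bleeding level in gene-rich late cells, at 1.49 (1.32 to 1.69) times in gene-poor late cells, just inside 1.5-fold, and at 0.917 (0.757 to 1.11) times in low-gene barcodes. Optn was at 0.862 (0.607 to 1.23), 0.699 (0.556 to 0.878) and 0.420 (0.296 to 0.587) times in the same groups. Per barcode, Sqstm1 was past 1.5-fold in gene-poor late cells, at 1.65 (1.46 to 1.86) times. At matched haemoglobin Sqstm1 was at 1.19 (1.01 to 1.40) times between 80 and 90% and at 1.54 (1.35 to 1.75) times between 90 and 95%. In low-gene barcodes 46 PHZ and 155 bleeding UMIs of Optn were counted, where free RNA would give 19.8 and 19.1, and background barcodes had more Optn under PHZ, at 1.68 (1.31 to 2.17) times.

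In low-gene barcodes 6 genes could be compared, since Ulk1, Atg7 and Fundc1 had fewer than 50 UMIs. Gabarapl1 was higher under PHZ at 2.38 (1.46 to 3.94) times, where 19.9% of 2248 genes were past 1.5-fold, and Optn was lower, where 16.1% were. With the low-gene bound at 200 genes in place of 300 neither was called: the log2 ratio of Optn was -0.47, and Gabarapl1, at 0.96, did not reach 50 UMIs. Of the 47 PHZ and 28 bleeding Gabarapl1 UMIs, 15.2 and 7.32 would come from free RNA. Bnip3l was at 0.816 (0.799 to 0.833), Gabarapl2 at 0.867 and Map1lc3b at 0.883 times the bleeding level. Low-gene barcodes held fewer non-haemoglobin UMIs under PHZ, and per barcode these 3 genes were at 0.679, 0.721 and 0.735 times. With 1 library each, treatment, animals and library preparation cannot be told apart.

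**Figure D5:**
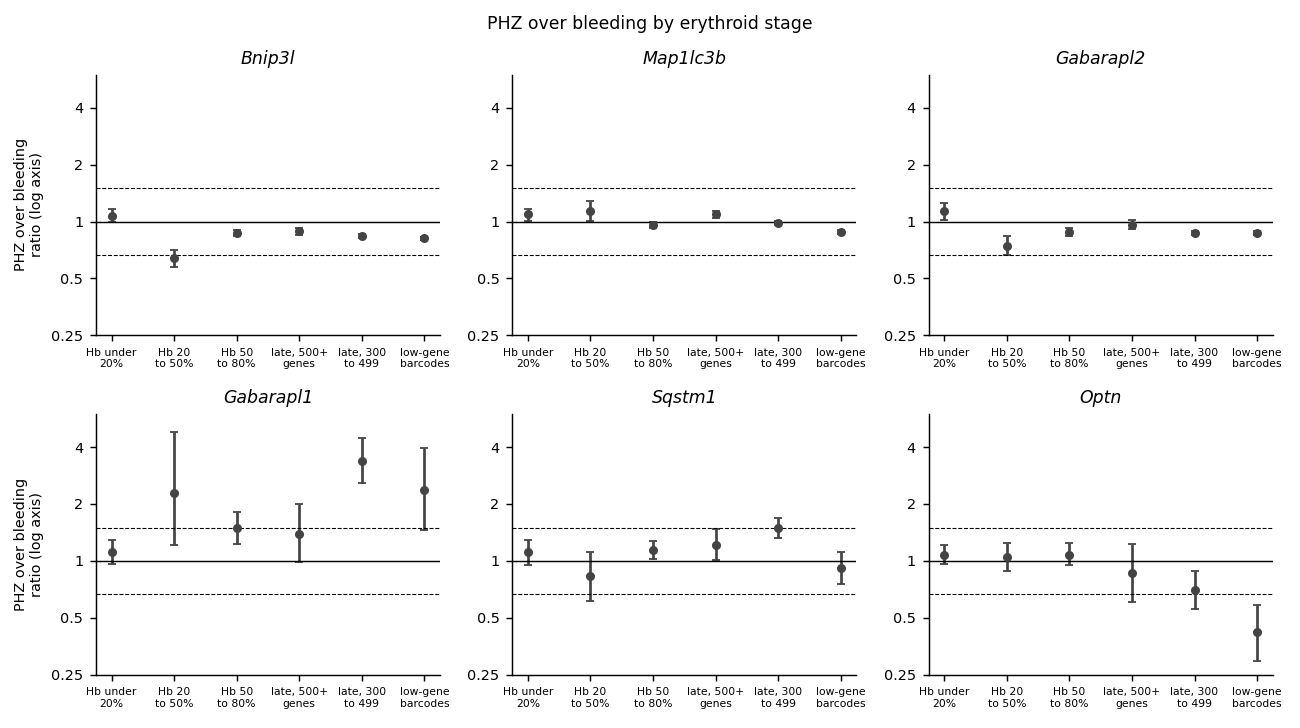
PHZ over bleeding ratio of CPM (log axis) by erythroid stage for the 6 genes measured in all late groups and in low-gene barcodes, with exact 95% counting intervals; the solid line is equality and dashed lines mark 1.5-fold. Gabarapl1 lies at 3.39 in gene-poor late cells and Optn at 0.420 in low-gene barcodes, while Map1lc3b stays between 0.883 and 1.14.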

How the data were processed

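Spleen cells of 1 PHZ and 1 bleeding library were measured with 10x Genomics 3′ chemistry. The deposited values are UMI counts per gene and barcode, background barcodes included; per the submitters' processing notes they come from Cell Ranger 7.0.0 with mm10, while per the file headers the matrices name Cell Ranger version 4. Whether intronic reads were counted is not given in the sources used here. Each library held 128130213 (PHZ) and 145260780 (bleeding) UMIs.

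Barcodes with at least 1000 UMIs, 300 genes and at most 10% mitochondrial UMIs were kept. Doublets were scored against simulated ones and removed at 0.8% per 1000 cells (332 PHZ, 754 bleeding). Cells were clustered on 2000 variable genes, 30 principal components and 15 neighbours (Leiden, resolution 1), leaving out the genes described, and a cluster was named from at least 3 markers among its 50 leading genes, unless another class had more markers among its 10 leading genes or, with none of its own among those 10, its cells had fewer UMIs than their library's median divided by 3. UMIs were summed per group and library, and scaled to 1000000 non-haemoglobin UMIs. Ratios have exact conditional 95% intervals and levels exact Poisson ones, which cover counting error only. A difference was called past 2-fold the same way in both libraries (stages) or past 1.5-fold (treatments), from 50 UMIs over both groups. Free RNA was estimated from Igkc and background barcodes of 10 to 100 UMIs. Python 3.11.15, numpy 2.4.6, scipy 1.17.1, pandas 2.3.3, scikit-learn 1.9.0, leidenalg 0.10.2, igraph 0.11.9 and matplotlib 3.10.9 were used, and the interval and call steps were tested on simulated data.

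The genes, lists and rules were chosen with earlier results of these data known. Of the wider list, those named were the 4 with the most UMIs in late cells and those past 4-fold between late and early cells in both libraries, or whose interval between treatments lay past 1.5-fold. UMIs per barcode, comparisons with gene-poor late cells and haemoglobin bins within late cells were added after seeing the data. One gene beyond the 72 of the wider list is not reported here.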

Additional observations from a re-analysis of the deposited data

Results flagged for a closer look

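Low-gene barcodes over early cells went opposite ways in the 2 libraries for 2 genes, a difference that was not tested. The CPM ratio of Ulk1 was 1.68 under PHZ and 0.316 under bleeding, from 28 and 9 UMIs in low-gene barcodes, where free RNA would give 21.9 and 20.8. That of Optn was 0.556 under PHZ and 1.43 under bleeding, from 46 and 155 UMIs, where free RNA would give 19.8 and 19.1.

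Cells of clusters left unnamed by the rules entered no comparison, and some held the genes above the level of background barcodes. Cluster 14, with 153 PHZ and 92 bleeding cells and a median of 2224 UMIs, was led by Specc1, March3, Lpin2 and Xpo7. Xpo7, Tmcc2, Ypel4 and Fbxo30 were among the 10 leading genes both of it and of erythroid-like cluster 7. Cluster 14 had 4 markers of 1 class among its 50 leading genes, above the minimum of 3, and only its few UMIs left it unnamed. Its PHZ cells had 1230 CPM of Bnip3l, 113 of Gabarapl1, 533 of Ulk1, 271 of Sqstm1 and 155 of Optn. Its bleeding cells had 1420 CPM of Bnip3l, 606 of Map1lc3b, 68.1 of Gabarapl1, 439 of Ulk1, 278 of Sqstm1 and 130 of Optn. The Ulk1 levels exceeded those of erythroid-like cells at 50 to 80% haemoglobin, at 216 and 204 CPM. Cluster 24, led by Cst3 and Mzb1, had 81.9 CPM of Sqstm1 in 103 bleeding cells, against 47.9 CPM in background barcodes.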

How the results depend on the processing

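Of 752 single-gene values recomputed over 15 settings, 534 moved by less than their counting interval, 207 by more, and 11 past the fold limit changed sign. In log2 of late over early, Gabarapl1 turned to -1.04 (PHZ) and -1.36 (bleeding) with all UMIs as denominator. In UMIs per barcode it was -2.36 and -2.70, Sqstm1 -0.59 and -0.74, and Ulk1 -1.14 and -0.84. Median-of-ratios scaling moved late over early by 2.25 and 1.54, which put Atg7 under PHZ at 0.02 and Fundc1 under bleeding at 0.04. With haemoglobin bounds of 10 and 90%, Ulk1 in low-gene barcodes over late cells was 0.62 under PHZ. The count of 3 genes changed in low-gene barcodes became 1 with those bounds, 1 against gene-poor late cells and 5 in UMIs per barcode. The count of 7 genes changed between late and early cells stayed at 6 to 8, but its genes and their directions differed. With all UMIs as denominator, only Bnip3l, Map1lc3b and Gabarapl2 were called higher, and Gabarapl1, Atg7, Fundc1 and Optn were called lower. UMIs per barcode gave the same calls. Median-of-ratios scaling called Optn higher and did not call Fundc1. Gabarapl1 and Ulk1 were not called with gene-poor late cells, nor Ulk1 and Fundc1 with those bounds. Atg7 was called lower in several settings. The count of 6 genes highest in erythroid-like cells became 2 with all UMIs as denominator, 4 with a minimum of 500 UMIs (without Gabarapl1 and Ulk1) and 7 with each cell scaled alike (with Sqstm1). Between treatments in gene-rich late cells the count of 0 became 1 (Ulk1 lower) with all UMIs as denominator, with each cell scaled alike, with a 5% mitochondrial limit and with free RNA subtracted. It was also 1 with a minimum of 10 UMIs (Atg7 lower). With Gabarapl1 higher, it was 1 with a bound of 400 genes, in gene-poor cells and at 80 to 90% haemoglobin. It was 2 at 90 to 95% (Gabarapl1 and Sqstm1 higher) and 3 with median-of-ratios scaling. In low-gene barcodes the count of 2 became 4 with a minimum of 10 UMIs and 0 with a bound of 200 genes. The cause of these moves was not tested. No paired analysis was possible because each treatment had 1 library. Depth limits Atg7, Fundc1 and Ulk1 in late cells and low-gene barcodes.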
